A study of Mus musculus with 10 samples.

Results

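The genes described here prepare and load the peptides of MHC class I molecules. They are 10 named genes, B2m, Tap1, Tap2, Tapbp, Psmb8, Psmb9, Psmb10, Nlrc5, Erap1 and Calr, out of 19937 genes with a probe set annotated to a single symbol. Each gene is represented by its probe set of highest mean, taken from probe sets annotated to that symbol alone. All 10 passed the filter on dim probe sets and are among the 12670 genes tested. They were followed on each array, by genotype, and by the level of Cd2, an adhesion receptor of T cells, which splits the arrays into a high and a low class.

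MHC class I molecules show peptides from inside the cell to cytotoxic T cells. The proteasome cuts proteins into peptides, and under interferon its catalytic subunits are exchanged for the immunoproteasome subunits Psmb8, Psmb9 and Psmb10. The transporter Tap1-Tap2 pumps the peptides into the endoplasmic reticulum, where Erap1 trims them and tapasin (Tapbp) and calreticulin (Calr) help to place them on a heavy chain paired with the light chain B2m. Nlrc5 is the transactivator that drives many genes of this pathway, and lymphocytes express the pathway at high levels.

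Primary mediastinal T cell lymphomas arose in NPM-ALK transgenic mice, and total RNA of each lymphoma was hybridised to 1 Affymetrix array per mouse. NPM-ALK is the fusion kinase of anaplastic large cell lymphoma, and WASP, the Was product, drives branching of actin filaments in blood cells. The WASP-deficient group had 5 mice carrying NPM-ALK on a WASP-deficient background, either WASP-/- females or WASP-/ males, and the WASP-intact group (labelled WT) had 5 mice carrying NPM-ALK alone. All 10 mice carried the transgene on the C57BL/6 background, received no treatment and developed lymphoma at 4 to 5 months of age. Neither the promoter that drives NPM-ALK nor the sex of each animal is given in the sources used here. Xist, the RNA that silences an X chromosome in female cells, was low on all 5 WASP-deficient arrays and on WASP-intact array 3. It was high on the other WASP-intact arrays. A difference between genotypes therefore cannot be fully told apart from one that goes with Xist, in any comparison below.

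Was itself lay between 7.92 and 8.20 on the 5 WASP-deficient arrays and between 9.11 and 9.34 on the 5 WASP-intact arrays, so its level went with the label on 10 of 10 arrays. Whether the single Was probe set lies in the deleted part is not stated, so the signal left on WASP-deficient arrays cannot be read as transcript or as background. All levels are log2 intensities, and differences are WASP-deficient minus WASP-intact unless another pair is named. Cd3e, a chain of the T cell receptor complex, lay between 12.06 and 12.59 on all 10 arrays. Cd2 was at 11.52 on WASP-deficient array 1, 11.18 on WASP-intact array 4 and 11.30 on WASP-intact array 5. The remaining 7 arrays lay between 6.10 and 6.90. The first 3, 1 WASP-deficient and 2 WASP-intact, are called Cd2-high, and the other 7 (4 WASP-deficient and 3 WASP-intact) Cd2-low. Cd3d, another such chain, was at 5.26 to 6.47 on the Cd2-high arrays and at 8.96 to 10.08 on the Cd2-low arrays. The Cd2-high arrays also held more signal of fibroblast markers, with summed intensities of 3799.7 to 6306 against 1969 to 3234 on the Cd2-low arrays (6 of 6 markers past the filter). Summed dendritic cell markers were at 1145 to 1330.5 on Cd2-high arrays and 660 to 796 on Cd2-low arrays (4 of 8 past the filter). The sums do not speak for every marker. Of those tested, 3 of 6 fibroblast and 1 of 4 dendritic cell genes were higher without overlap on Cd2-high arrays, beside 14.4% of all genes. The median differences of these lists, Cd2-high minus Cd2-low, were 1.15 and 0.06. The part of these cells in the results below was not tested. In whole lymphomas, fewer cells of a type and less RNA per cell cannot be told apart. The number of arrays, 5 per genotype, limits the precision.

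None of the 10 genes passed the test of genotype. Their differences lay between -0.30 for Psmb10 and 0.12 for Psmb9, with a median of 0.01 beside -0.004 over all genes tested. Limma's adjusted p, by Benjamini-Hochberg over 12670 genes, was 0.999 for each of the 10, and 0 of 10 fell under 0.05 where 0.00789% of all genes did (Was alone). At an unadjusted p under 0.05 the count was 1 of 10, Erap1, beside 2.89% of all genes (1.33% lower in WASP-deficient lymphomas). Higher means in the WASP-deficient group were found for 6 of the 10 and lower means for 4, beside 6195 higher and 6475 lower of all 12670 genes.

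**Figure D1:**
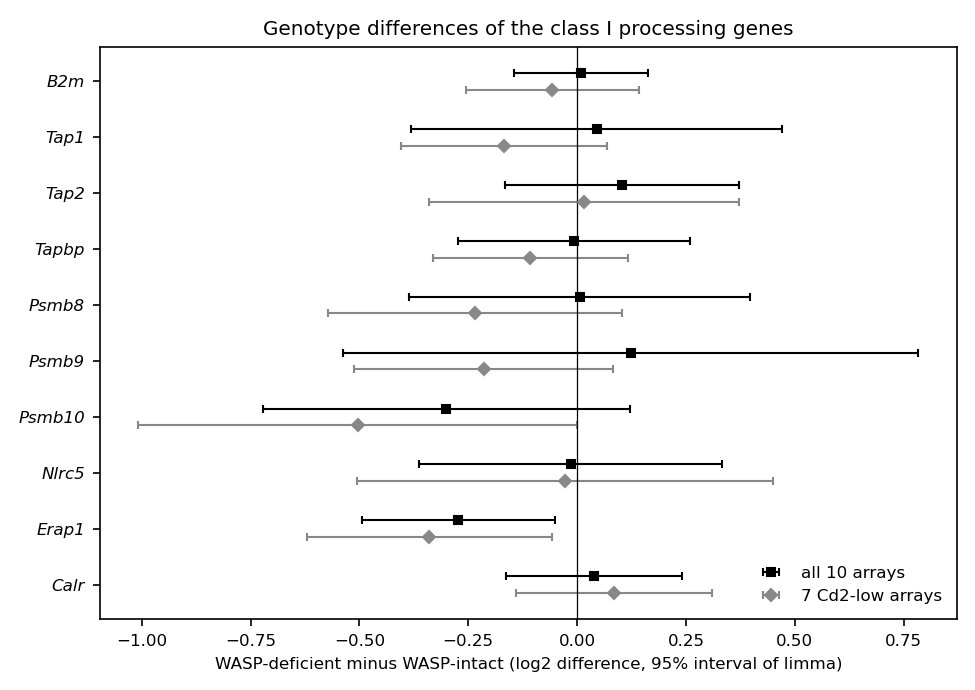
Log2 difference of each of the 10 genes, WASP-deficient minus WASP-intact (horizontal axis), with the 95% confidence interval of limma, n = 5 arrays per genotype. Black squares are all 10 arrays and grey diamonds the 7 Cd2-low arrays. Over all arrays 9 of the 10 intervals span 0, and that of Erap1 runs from -0.49 to -0.05.

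Among the catalytic subunits, Psmb9, the immunoproteasome subunit that takes the place of Psmb6, varied most. It was at 9.36, 10.32, 10.02, 10.02 and 9.80 on WASP-deficient arrays 1 to 5 and at 10.20, 10.30, 10.26, 9.13 and 9.01 on WASP-intact arrays 1 to 5. The low values were those of the Cd2-high arrays in either genotype, and the genotypes overlapped. The genotype difference was 0.12 (SE 0.30, 95% interval -0.54 to 0.78). Its standard deviation over the 10 arrays stood at the 88.6th percentile of all genes tested. On Cd2-high arrays Psmb9 lay at 9.01 to 9.36, with a median of 9.13, against 9.80 to 10.32 on Cd2-low arrays, with a median of 10.20. The classes did not overlap, as for 30.5% of all genes tested, the gap was 0.44, and the median on Cd2-low arrays was 2.09-fold that on Cd2-high arrays.

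Psmb8, which takes the place of Psmb5, was at 10.08, 10.54, 10.11, 10.02 and 9.94 on WASP-deficient arrays 1 to 5 and at 10.40, 10.33, 10.44, 9.83 and 9.67 on WASP-intact arrays 1 to 5. WASP-deficient array 2 stood above the other 4 of its group, and the genotypes overlapped (difference 0.01, SE 0.18, 95% interval -0.39 to 0.40). The median of Psmb8 was 9.83 on Cd2-high arrays and 10.33 on Cd2-low arrays, a difference of -0.50. The classes overlapped, because WASP-deficient array 1, at 10.08, lay above the lowest Cd2-low arrays.

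Psmb10, which takes the place of Psmb7, was lowest on 3 of the WASP-deficient arrays. It was at 9.49, 9.76, 9.05, 8.92 and 8.79 on WASP-deficient arrays 1 to 5 and at 9.51, 9.58, 9.81, 9.32 and 9.29 on WASP-intact arrays 1 to 5. WASP-deficient arrays 3, 4 and 5 lay below every other array, while arrays 1 and 2 lay within the WASP-intact range. The difference of -0.30 (SE 0.19, 95% interval -0.72 to 0.12) missed the test (limma adjusted p = 0.999), and the exact two-sided permutation test gave p = 0.167 (n = 5 each). On the Cd2-low arrays alone it was -0.50 (SE 0.22, limma unadjusted p = 0.0499, adjusted p = 0.999). The Cd2 classes overlapped, at medians of 9.32 on Cd2-high and 9.51 on Cd2-low arrays.

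The constitutive counterparts of these subunits overlapped on both splits. Psmb5, Psmb6 and Psmb7 differed by -0.04, 0.06 and -0.08 between genotypes, none past the test. Their medians differed by -0.13, -0.18 and 0.06 between Cd2-high and Cd2-low arrays, with overlap for each gene. Psmb11, the thymic epithelium subunit, was under the filter.

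Tap1, the transporter subunit whose gene lies next to Psmb9, was also lowest on the Cd2-high arrays. It was at 9.53, 10.09, 9.93, 9.96 and 9.81 on WASP-deficient arrays 1 to 5 and at 10.12, 10.03, 10.19, 9.47 and 9.28 on WASP-intact arrays 1 to 5. The genotypes overlapped, with a difference of 0.04 (SE 0.19, 95% interval -0.38 to 0.47). The 3 lowest arrays were the Cd2-high ones, at 9.28 to 9.53 with a median of 9.47, against 9.81 to 10.19 with a median of 10.03 on Cd2-low arrays. The gap between the classes was 0.28, and the Cd2-low median was 1.48-fold the Cd2-high median.

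Tap1 and Psmb9 start from one bidirectional stretch of chromosome 17, shown here because both genes had their lowest values on the same 3 arrays. In the RefSeq annotation of GRCm38.p6 their starts are 225 bases apart on opposite strands, and the windows of 250 bases before to 50 after each start share 275 bases. The Tap1 window is chr17:34187306-34187605 on the plus strand and the Psmb9 window is chr17:34187281-34187580 on the minus strand. Capitals mark CCAAT, a GC box (GGGCGG, here on the reverse strand as CCGCCC) and TGACG, the core of a cyclic AMP response element.
Tap1: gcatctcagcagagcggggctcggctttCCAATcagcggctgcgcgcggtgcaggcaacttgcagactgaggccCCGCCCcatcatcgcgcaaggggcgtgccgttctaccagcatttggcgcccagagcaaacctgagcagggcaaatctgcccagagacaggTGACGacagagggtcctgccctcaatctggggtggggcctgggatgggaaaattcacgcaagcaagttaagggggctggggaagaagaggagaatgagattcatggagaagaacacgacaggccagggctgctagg
Such letters are common: on either strand CCAAT is found in 37.4% of the 32851 RefSeq promoter windows, GGGCGG in 35.7% and TGACG in 20.8%. A match describes letters in the window and not a site in use.

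**Figure D2:**
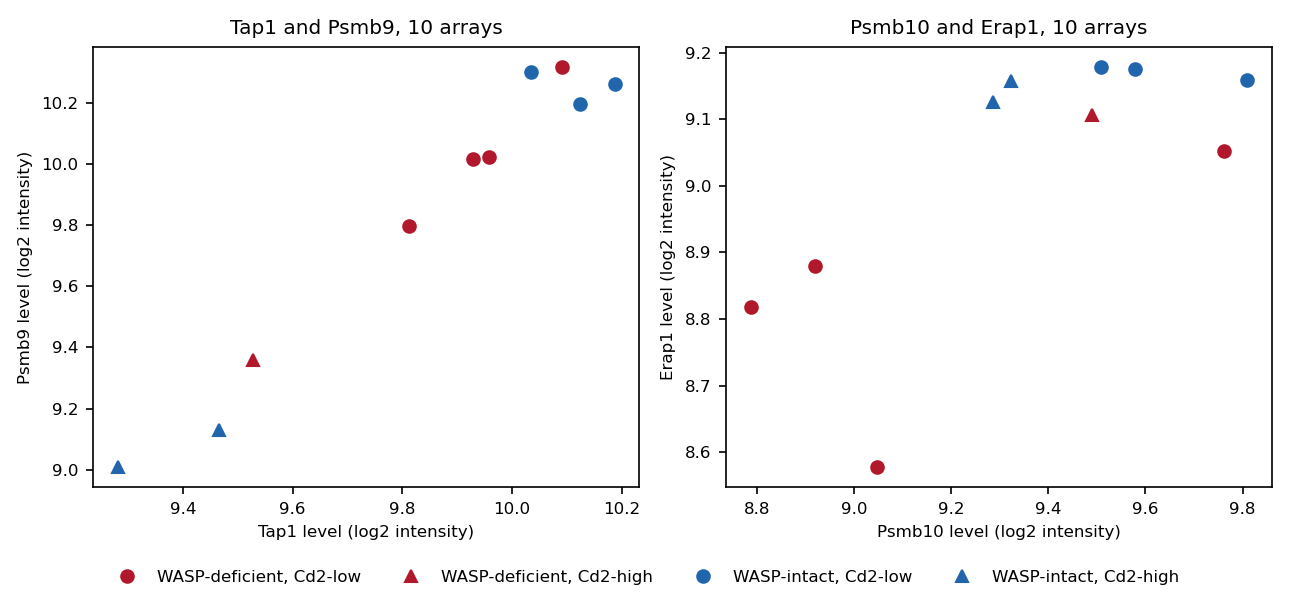
Each point is 1 array, with Tap1 against Psmb9 on the left and Psmb10 against Erap1 on the right (log2 intensity on every axis). Red points are WASP-deficient and blue WASP-intact, and triangles are Cd2-high arrays. The 3 Cd2-high arrays are the lowest for both Tap1 and Psmb9, and WASP-deficient arrays 3, 4 and 5 are the lowest for both Psmb10 and Erap1.

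Across the 7 Cd2-low arrays, which hold both genotypes, Tap1 and Psmb9 had a Pearson r of 0.88 (exact permutation p = 0.00972, 0.0972 after Benjamini-Hochberg adjustment over the 10 relations computed). Spearman's rho was 0.71 (exact permutation p = 0.0881, adjusted 0.471). Without WASP-deficient array 5 and WASP-intact array 3, which lay farthest from the median of Tap1, r was 0.79. The relation thus missed the threshold after adjustment by either measure. No r over all 10 arrays is given, since the arrays form separate clusters.

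Tap2, the partner subunit of Tap1, overlapped on both splits. It was at 9.37, 9.56, 9.36, 8.90 and 9.20 on WASP-deficient arrays 1 to 5 and at 9.19, 9.36, 9.17, 9.07 and 9.09 on WASP-intact arrays 1 to 5. WASP-deficient array 4 was the lowest, the Cd2-high arrays lay within the range of the Cd2-low arrays (medians 9.09 and 9.20), and the genotypes overlapped. The genotype difference was 0.10 (SE 0.12, 95% interval -0.16 to 0.37).

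Tapasin, the bridge between the transporter and the empty class I molecule, was lowest on the same 3 arrays, at a smaller size than Tap1. Tapbp was at 10.06, 10.43, 10.26, 10.37 and 10.32 on WASP-deficient arrays 1 to 5 and at 10.34, 10.51, 10.51, 9.99 and 10.13 on WASP-intact arrays 1 to 5. The genotype difference was -0.01 (SE 0.12, 95% interval -0.27 to 0.26). Cd2-high arrays lay at 9.99 to 10.13 (median 10.06) and Cd2-low arrays at 10.26 to 10.51 (median 10.37), a gap of 0.13 and a Cd2-low median 1.24-fold the Cd2-high one.

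Calreticulin, a chaperone of the endoplasmic reticulum that also serves glycoproteins outside this pathway, went the other way. Calr was at 11.90, 11.62, 11.78, 11.59 and 11.73 on WASP-deficient arrays 1 to 5 and at 11.51, 11.62, 11.66, 11.82 and 11.83 on WASP-intact arrays 1 to 5. The 3 highest values were those of the Cd2-high arrays, at 11.82 to 11.90, against 11.51 to 11.78 on Cd2-low arrays. The gap was 0.04 and the Cd2-high median was 1.16-fold the Cd2-low median. Between genotypes the values overlapped (difference 0.04, SE 0.09, 95% interval -0.16 to 0.24).

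The RefSeq promoter window of Calr, chr8:84846882-84847181 on the minus strand, is shown because Calr alone among the 10 was higher on every Cd2-high array. Capitals mark an endoplasmic reticulum stress element, which is CCAAT, any 9 bases and CCACG, read on the reverse strand at -162 to -144 from the start. Its last 5 printed capitals are also a CCAAT box on that strand.
Calr: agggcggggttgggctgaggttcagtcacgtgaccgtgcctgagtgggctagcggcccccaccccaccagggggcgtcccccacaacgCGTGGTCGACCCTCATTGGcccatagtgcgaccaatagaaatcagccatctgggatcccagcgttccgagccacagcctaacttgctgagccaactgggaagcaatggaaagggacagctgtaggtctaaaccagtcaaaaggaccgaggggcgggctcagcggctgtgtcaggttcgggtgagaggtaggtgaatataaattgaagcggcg
The element is found on either strand in 0.119% of all promoter windows, and among the 8 of the 10 genes with a window it was found in that of Calr. It was 1 of 8 motifs searched, and the Calr window also held an NF-kappaB site, a GC box and a TATA box by their letters. A match describes letters and not a site in use, and its part in the level of Calr was not tested.

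B2m, the light chain shared by all class I molecules, was the steadiest of the 10. It was at 12.84, 12.90, 12.90, 12.83 and 12.88 on WASP-deficient arrays 1 to 5 and at 12.93, 12.96, 12.93, 12.77 and 12.74 on WASP-intact arrays 1 to 5. The range over all arrays was 0.22 and the standard deviation stood at percentile 1.51 of all genes tested. Its mean level stood at percentile 99.7, and whether so bright a signal narrows the spread was not tested. The genotype difference was 0.01 (SE 0.07, 95% interval -0.15 to 0.16). On Cd2-high arrays its median was 12.77 and on Cd2-low arrays 12.90, with WASP-deficient arrays 1 and 4 closing the gap between the classes.

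The heavy chains that pair with B2m are hard to tell apart on arrays, because their genes are near-identical copies. Probe sets for the classical heavy chains were annotated to several genes at once, so they name no gene. The first of 2 such probe sets was at 9.96, 11.33, 11.28, 10.94 and 10.91 on WASP-deficient arrays 1 to 5 and at 11.15, 11.06, 11.34, 9.57 and 9.68 on WASP-intact arrays 1 to 5. The second differed in the same manner, with a Cd2-high minus Cd2-low difference in medians of -1.73, beside -1.46 for the first. The 3 lowest arrays were the Cd2-high ones for both probe sets. Between genotypes these probe sets differed by 0.32 and 0.45, with overlap, and neither was tested among the genes with a single symbol.

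Among heavy chain genes with a probe set of their own, 7 of 19 listed were tested and 0 passed the test of genotype. H2-Q4 and H2-Q2, nonclassical heavy chains of the Q region, had differences in medians of -2.96 and -2.92 (Cd2-high minus Cd2-low), so that Cd2-low arrays were 7.77-fold and 7.56-fold higher. H2-T10 followed at -1.38 and Mr1, which presents vitamin metabolites, at -0.53. Cd1d1, which presents lipids, was higher on Cd2-high arrays by 1.19. These 5 genes of 7 had no overlap between the classes, beside 30.5% of all genes tested, and H2-M3 and H2-T24, at -0.27 and -0.02, overlapped. By genotype the heavy chain genes of smallest p were Cd1d1 (-0.40), H2-M3 (-0.11) and H2-Q4 (0.51). Signal of the Q and T genes can be shared with their near-identical neighbours and is uncertain for any single gene.

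Seen together, 4 of the 10 genes had no overlap between Cd2-high and Cd2-low arrays, Psmb9, Tap1 and Tapbp lower and Calr higher on Cd2-high arrays. Over all genes tested the share without overlap was 30.5%, with 16.1% lower and 14.4% higher, so the 10 genes lie near the background. The count was 6 without WASP-deficient array 1, where 38.6% of all genes had no overlap, and 5 without WASP-deficient array 4, where 33.6% had none. The median size of the difference was 0.197 among the 10 and 0.200 among all genes. Medians were lower on Cd2-high arrays for 8 of the 10, all except Erap1 and Calr, but of these only Psmb9, Tap1 and Tapbp had no overlap. The median difference with its sign was -0.16 among the 10 and -0.02 over all genes tested. The share of all genes with a lower median was not counted. The split rests on a measured gene and not on the labels, so no test is given.

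**Figure D3:**
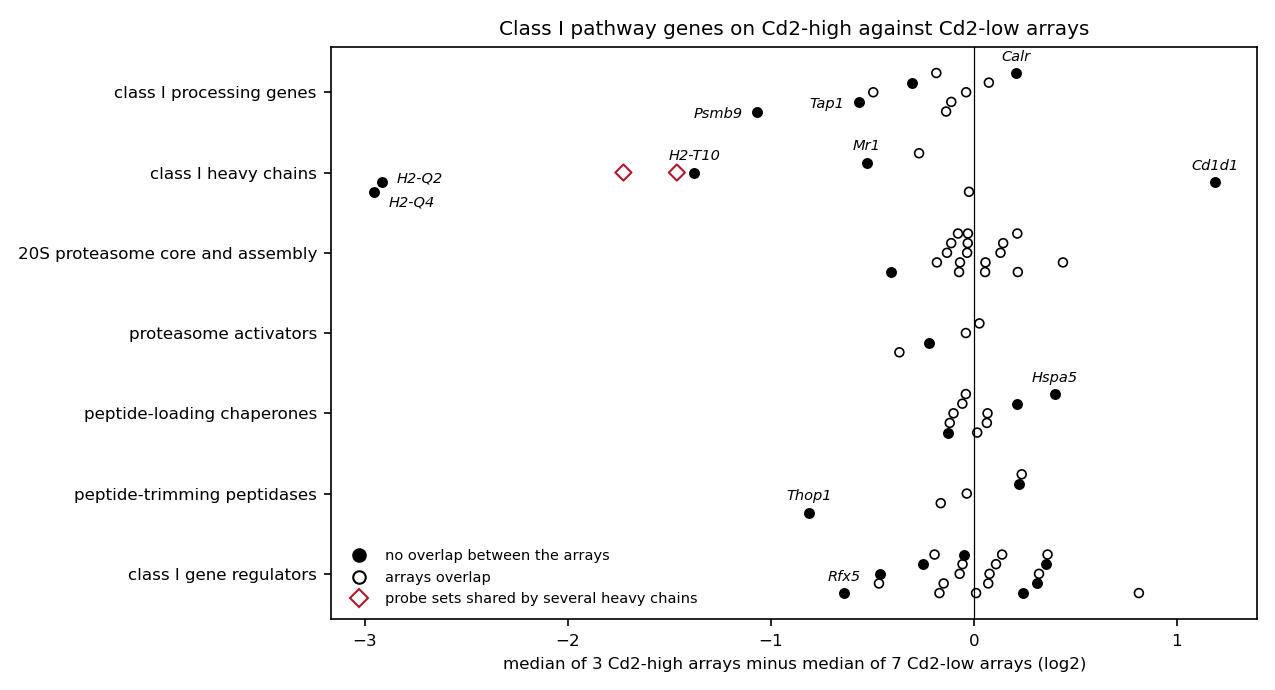
Median of the 3 Cd2-high arrays minus median of the 7 Cd2-low arrays (log2, horizontal axis) for each tested gene, 1 row per gene list. Filled points are genes without overlap between the classes, and diamonds are the 2 probe sets shared by several heavy chains. H2-Q4 and H2-Q2 lie farthest left at -2.96 and -2.92, and Cd1d1 farthest right at 1.19. Vertical offsets within a row carry no value.

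Erap1, the aminopeptidase that trims peptides in the endoplasmic reticulum, was lower on all 5 WASP-deficient arrays than on any WASP-intact array. It was at 9.11, 9.05, 8.58, 8.88 and 8.82 on WASP-deficient arrays 1 to 5 and at 9.18, 9.18, 9.16, 9.16 and 9.13 on WASP-intact arrays 1 to 5. The averages were 8.89 ± 0.21 in WASP-deficient and 9.16 ± 0.02 in WASP-intact lymphomas (SD, n = 5 each). The WASP-intact values were so close that their standard deviation stood at the 0.26th percentile of all genes, and WASP-deficient array 1 lay 0.02 below the lowest of them.

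The difference in Erap1 was -0.27 (SE 0.10, 95% interval -0.49 to -0.05). It missed the threshold over all genes (limma adjusted p = 0.999, unadjusted p = 0.0207), where it ranked 136th by p of 12670. The exact two-sided permutation test for this single gene gave p = 0.00794, the smallest that groups of 5 allow. Any gene without overlap reaches that value, so it adds nothing to the lack of overlap. It is not adjusted for picking Erap1 from the 10 genes. Genes without overlap between genotypes made up 0.568% of all genes tested, or 0.245% lower in WASP-deficient lymphomas, and Erap1 was 1 of 10 here.

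The direction of Erap1 held within the Cd2-low arrays, where the difference was -0.34 (SE 0.12, limma unadjusted p = 0.0232, adjusted p = 0.999). With the Cd2 class as a block it was -0.25 (SE 0.10). Xist lay at 4.50 to 5.58 on WASP-deficient arrays and at 11.52 to 11.90 on WASP-intact arrays other than array 3, where it was 4.40. Erap1 on that array was 9.16, inside the WASP-intact range, and the difference with the Xist level as a covariate was -0.31 (SE 0.17, 95% interval -0.69 to 0.07). Summed adipocyte markers were at 782 to 1056 on WASP-deficient arrays and 1078 to 1398 on WASP-intact arrays (4 of 4 past the filter), without overlap. The sum does not speak for every marker. Of the 4 genes, 1 had no overlap, lower in WASP-deficient lymphomas, as for 0.245% of all genes. Median genotype differences were -0.59 for 6 fibroblast genes and 0.69 for 5 thymic epithelium genes, with overlap for each gene. The part of these cells in the Erap1 values was not tested. The Cd2 classes overlapped for Erap1, at medians of 9.13 on Cd2-high and 9.05 on Cd2-low arrays.

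The RefSeq promoter windows of B2m and Erap1 are shown because, of the 8 genes with a window, these 2 hold the core of an interferon response element. B2m was the steadiest gene and Erap1 the gene without overlap between genotypes. The core searched was GAAA, any 2 bases and GAAA, on either strand, found in 3.44% of all promoter windows and in capitals here. It lies at -139 to -130 from the start in B2m, chr2:122147437-122147736 on the plus strand, and across the start of Erap1 at -4 to 6 on the reverse strand, chr13:74639603-74639902 on the plus strand.
B2m: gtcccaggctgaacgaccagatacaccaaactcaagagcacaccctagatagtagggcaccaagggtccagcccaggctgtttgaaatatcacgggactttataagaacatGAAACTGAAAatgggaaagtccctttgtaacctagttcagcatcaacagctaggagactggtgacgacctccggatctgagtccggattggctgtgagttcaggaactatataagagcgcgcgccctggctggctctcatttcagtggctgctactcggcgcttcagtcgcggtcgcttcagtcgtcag
Erap1: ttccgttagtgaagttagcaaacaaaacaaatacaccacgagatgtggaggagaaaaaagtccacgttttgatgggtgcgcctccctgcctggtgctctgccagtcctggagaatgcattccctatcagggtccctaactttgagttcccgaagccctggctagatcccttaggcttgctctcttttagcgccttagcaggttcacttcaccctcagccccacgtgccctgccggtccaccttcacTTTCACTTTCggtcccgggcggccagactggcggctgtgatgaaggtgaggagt
The windows of Tap1, Tapbp, Psmb8, Psmb9, Psmb10 and Calr do not hold these letters. Tap2 and Nlrc5 are named without a window. Here too a match describes letters and not a site in use.

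**Figure D4:**
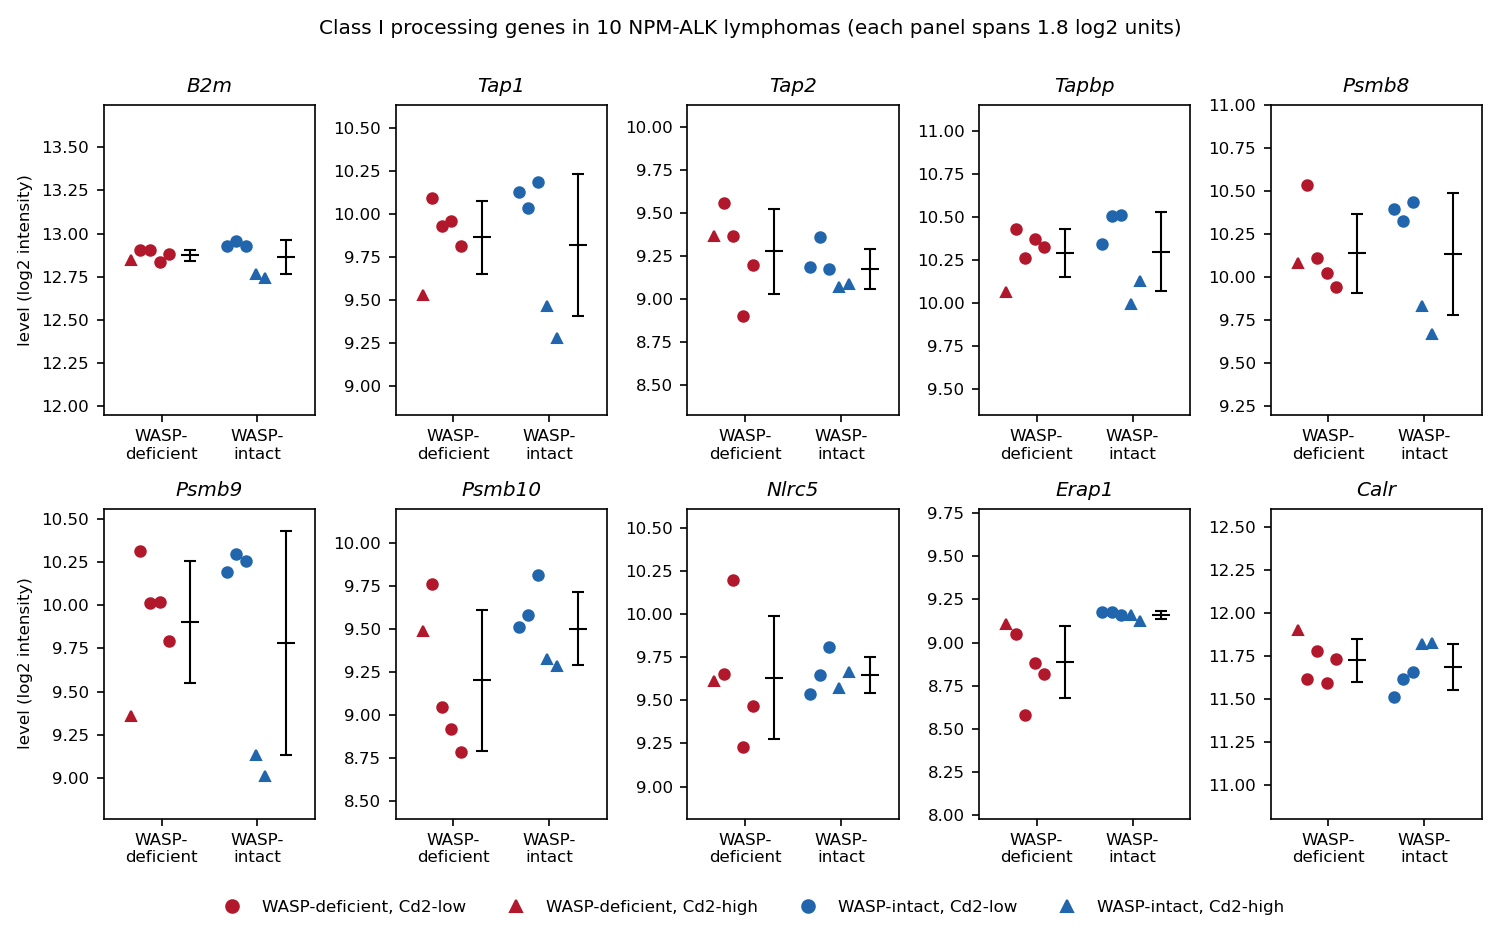
Level of each of the 10 genes (log2 intensity, vertical axis) on each array, WASP-deficient in red and WASP-intact in blue, with Cd2-high arrays as triangles and the mean ± SD (n = 5) in black. Each panel spans the same range of log2 units around its gene, so heights compare within a panel and spreads between panels. The Erap1 points of the genotypes do not overlap, and the triangles of Psmb9 and Tap1 lie below their circles.

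Nlrc5, the transactivator of the pathway, showed no split by genotype or by Cd2 class in its probe set of highest mean. That probe set was at 9.61, 9.65, 10.20, 9.23 and 9.47 on WASP-deficient arrays 1 to 5 and at 9.54, 9.65, 9.81, 9.57 and 9.66 on WASP-intact arrays 1 to 5. The genotype difference was -0.01 (SE 0.16, 95% interval -0.36 to 0.33), and the Cd2-high and Cd2-low medians were 9.61 and 9.65. WASP-deficient arrays 3 and 4 held the highest and the lowest value.

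Nlrc5 was measured by 19 probe sets, all past the filter, and the others differed from the first on the Cd2 split. Their medians on Cd2-high arrays were lower than on Cd2-low arrays for 17 of the other 18, with a median difference of -0.47 and a range of -0.98 to 0.00. None of these 18 was without overlap between the classes. Between genotypes the 19 differences lay between -0.22 and 0.10, and 12 were lower in WASP-deficient lymphomas. The mean of the other 18 was 7.12, 7.75, 7.84, 6.98 and 7.18 on WASP-deficient arrays 1 to 5, and 7.53, 7.52, 7.82, 7.18 and 7.03 on WASP-intact arrays 1 to 5. WASP-deficient array 4 had the lowest value of 11 of the 19 probe sets.

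**Figure D5:**
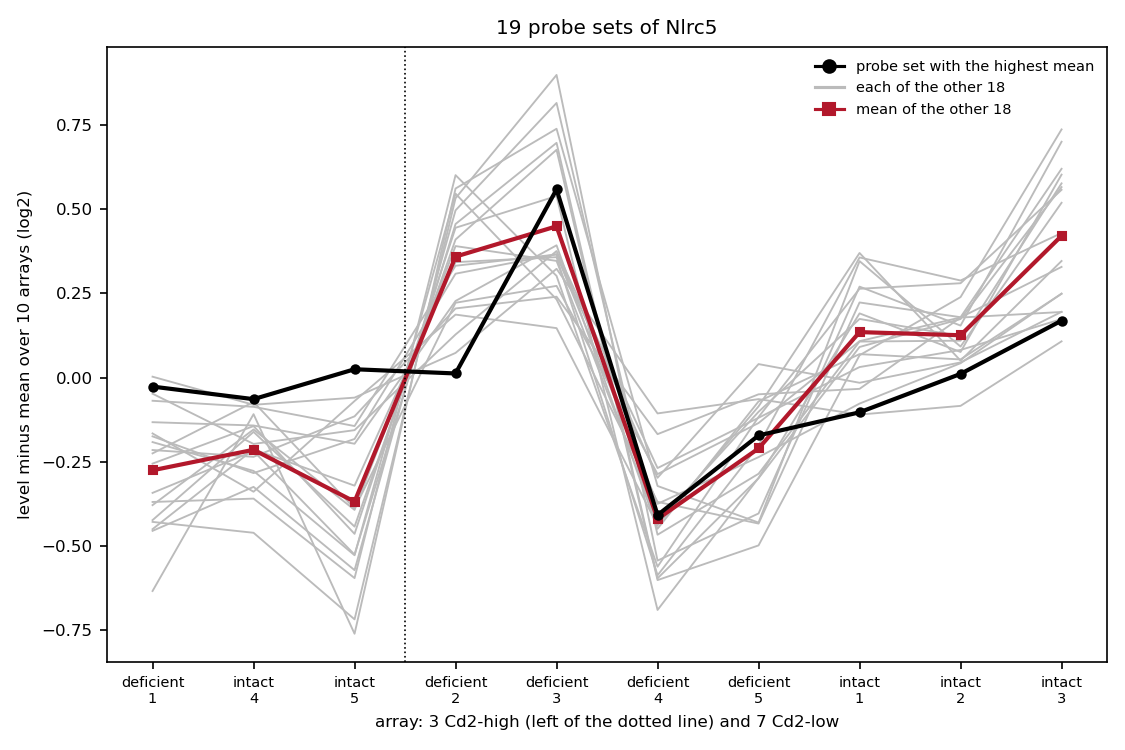
Level of each of 19 Nlrc5 probe sets minus its mean over 10 arrays (log2, vertical axis), with the 3 Cd2-high arrays left of the dotted line and the 7 Cd2-low arrays right of it. The black line is the probe set of highest mean, the grey lines are the other 18 and the red line is their mean. Lines join arrays for reading only. On the Cd2-high arrays the black line stays near 0 while the red line is below 0.

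No relation of Nlrc5 to the other 9 genes passed the threshold across the 7 Cd2-low arrays. Pearson r lay between -0.35 for Erap1 and 0.60 for Calr, and the smallest exact permutation p after adjustment over the 10 relations was 0.521. Without WASP-deficient arrays 3 and 4, the farthest from the median of Nlrc5, r lay between -0.03 for Calr and 0.90 for Tapbp, so the values rest on those arrays. With the mean of the other 18 Nlrc5 probe sets, an alternative added after the data were seen, r lay between 0.11 for Erap1 and 0.72 for Tap2. The smallest exact permutation p after adjustment over these 9 relations was 0.241. Without WASP-deficient arrays 4 and 5, the farthest from the median of that mean, r lay between -0.76 for B2m and 0.77 for Calr and was below 0 for all except Tap2 and Calr.

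On the Cd2-low arrays by themselves, 8 of the 10 genes had a lower mean in WASP-deficient lymphomas, as did 57.0% of all genes, and 2 had a higher one, Tap2 and Calr. The median difference of the 10 was -0.14, beside -0.02 over all genes. None passed the test (limma adjusted p = 0.999 for each of the 10, against 0.0158% of all genes under 0.05). B2m and Erap1 had no overlap between genotypes there, both lower in WASP-deficient lymphomas, where 4.06% of all genes had none in either direction and 2.15% in this one. B2m was at 12.83 to 12.90 on the 4 WASP-deficient Cd2-low arrays and at 12.93 to 12.96 on the 3 WASP-intact ones, a difference of -0.06 (SE 0.09).

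The other genes of the pathway, in 6 lists, gave 64 tested genes of 82 listed. In WASP-deficient lymphomas 29 of them were higher and 35 lower, and the median difference was -0.02. None of the 64 passed (limma, smallest adjusted p = 0.999), and 1 had an unadjusted p under 0.05. That gene was Irf9, a transcription factor of the interferon response, at 0.34. On the Cd2 split 19 of the 64 had no overlap, 7 higher and 12 lower on Cd2-high arrays, a share near the 30.5% of all genes (14.4% higher and 16.1% lower).

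Of the 17 tested genes of the proteasome core and its assembly, 7 were higher and 10 lower by genotype, and those of smallest p were Psmb4 (0.14), Psmb7 (-0.08) and Psmg1 (-0.07). The 4 activators, which cap the proteasome, were Psme3 at 0.06, Psme4 at 0.05, Psme1 at -0.03 and Psme2 at -0.02. Among 10 chaperones 6 were higher and 4 lower, and those of smallest p were Tapbpl, the tapasin-related editor of peptides (-0.24), Uggt1, a sensor of glycoprotein folding (-0.16), and Sec61a1, a subunit of the translocation channel (0.11). Canx, Pdia3 and Hspa5, folding factors of the endoplasmic reticulum, were at 0.02, 0.02 and -0.04. On the Cd2 split 3 of the 10 had no overlap, Hspa5 at 0.40, Uggt1 at 0.21 and Canx at -0.12 (Cd2-high minus Cd2-low).

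Of 5 tested peptidases, 4 were higher and 1 lower by genotype, with Thop1, which degrades cytosolic peptides, at 0.17, Lap3 at 0.11 and Tpp2 at -0.12. Between Cd2-high and Cd2-low arrays 2 of the 5 had no overlap, Thop1 at -0.81 and Tpp2 at 0.22. Of 21 tested regulators 7 were higher and 14 lower by genotype. After Irf9, those of smallest p were Jak1, a kinase of interferon receptors (-0.21), and Ifngr1, a chain of the interferon gamma receptor (-0.21). Irf1, an activator of class I genes, was at -0.16, Rfx5, a component of the complex on class I promoters, at 0.07, and Ciita, the class II transactivator, at 0.07. Between Cd2-high and Cd2-low arrays 7 of the 21 had no overlap, near the share over all genes. Rfx5, Irf9, Rela and Rfxap were lower on Cd2-high arrays, at -0.64, -0.46, -0.25 and -0.05, and Ifngr2, Irf2 and Creb1 were higher, at 0.36, 0.31 and 0.24. Ifng was under the filter.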

How the data were processed

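Total RNA of 10 primary lymphomas, 1 array per mouse and 5 per genotype, was measured on Affymetrix arrays. Each deposited value is the intensity of 1 probe set on 1 array, which the authors computed by RMA according to the submitters' processing notes. The software version, genome build and annotation behind it were not given in the sources used here. RMA corrects background, quantile-normalizes the arrays and summarises probes, so array-wide differences in RNA amount cannot be read from them. The deposited intensities ran from 3.31 to 15587.9 with array medians of 117 to 123, a linear scale, and their log2 was taken before any test. Of 34760 probe sets, 21640 were annotated to 1 gene symbol, 1321 to several and 11799 are not named here. The gene IDs of 21553 matched the RefSeq genes of GRCm38.p6, used for names, with 0 symbols changed. Promoter windows are RefSeq's, of the same build. The table held 0 columns of other samples.

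Probe sets with a mean under the 40th percentile (log2 6.35, linear 81.7) were left out and each gene was represented by its brightest probe set, which left 12670 genes. Genotypes were compared with limma 3.58.1 in R 4.3.3 (lmFit, eBayes, no covariate), with p-values adjusted by Benjamini-Hochberg over all genes tested and a threshold of 0.05. For single genes an exact two-sided permutation test over arrays was used, whose smallest p is 0.00794 with 5 against 5. The labels call the replicates biological, so p-values measure spread between animals. The Cd2 split (log2 9 or more) is described without a test. Correlations used the 7 Cd2-low arrays and exact permutations, adjusted over 10 relations. The limma fit by genotype was tested on simulated data with independent noise and without Cd2 classes. The figures were drawn by matplotlib 3.10.9 under Python 3.11.15.

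The 10 genes, the other gene lists and the marker lists were chosen with earlier results of these data known. Named genes follow a rule: all 10, the 3 of smallest p and any past the threshold in each other list, a set of pathway genes such as the constitutive proteasome subunits, Was, Cd2 and Xist as checks, and the 5 genes most like the set. Heavy chain genes and regulators outside it that are given for the Cd2 split, and Cd3d and Cd3e, were named after their values were seen, and other cell type markers are given as sums. Alternatives were the filter, the probe set per gene, array weights, a robust fit, median centring, Xist as a covariate, the Cd2 class as a block or left out, the replicate number as a block, and each array left out.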

Additional observations from a re-analysis of the deposited data

Results flagged for a closer look

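Psmb8 on WASP-deficient array 2, at 10.54, stood apart from the other 4 WASP-deficient arrays, which lay at 9.94 to 10.11. The gap to the nearest of them was 0.715 of the range of the group, above the limit of 0.71 for 5 values. Chance places about 1 in 20 groups past that limit, and 20 groups of 5 were looked at for these 10 genes.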

How the results depend on the processing

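Under 21 alternatives 0 of the 10 genes and 0 genes of the other lists passed the test of genotype (limma, adjusted p under 0.05). Genes past the threshold over the whole table were 0 with Xist as a covariate (187 at an unadjusted p under 0.05), 2 without the Cd2-high arrays, and 1 to 4 with 1 array left out (2 without WASP-deficient array 1, 4 without WASP-intact array 3). The data do not show that the replicate numbers pair the mice. Correlations of same-numbered arrays ran from -0.71 to 0.37, with 2 of 5 over 0.1. The Cd2 classes enter these values, so they cannot exclude pairing. The replicate block left 0 genes past the threshold (248 unadjusted). Genes of the 10 without overlap between genotypes were 2 without the Cd2-high arrays, where the share of all genes was 4.06% in place of 0.568%. The differences of Tap2, Psmb10 and Erap1 kept their direction in 21 of 21. Several of these could not change them, since each of these genes has 1 probe set. The filters, the choice of probe set, the robust fit and the replicate block left each difference at its main value. Tap2 lay at 0.016 (without the Cd2-high arrays) to 0.20 (without WASP-deficient array 4), and at 0.033 without WASP-deficient array 2. Psmb10 lay at -0.61 (Xist) to -0.20 (without WASP-deficient array 5), and Erap1 at -0.34 to -0.20 (adjusted p of 0.659 or more for each). Other small differences changed sign. With array weights, Xist, the Cd2 block and the Cd2-high arrays left out, B2m was -0.044, -0.046, -0.016 and -0.057, Tap1 -0.10, -0.29, -0.078 and -0.17, Psmb8 -0.084, -0.28, -0.076 and -0.23, and Psmb9 -0.14, -0.31, -0.073 and -0.21. Nlrc5 was 0.022 with the probe set of largest SD. With 1 array left out the ranges were -0.022 to 0.033 for B2m, -0.090 to 0.14 for Tap1, -0.083 to 0.049 for Tapbp, -0.11 to 0.081 for Psmb8, -0.070 to 0.26 for Psmb9, -0.16 to 0.086 for Nlrc5 and -0.0058 to 0.073 for Calr. The cause was not tested. All 10 genes lay above the filter on dim probe sets, and 5 arrays per genotype limit what can be detected.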

Other observations

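The mean of the 10 genes, each centred on its own mean, was -0.06, 0.20, 0.03, -0.12 and -0.12 on WASP-deficient arrays 1 to 5 and 0.10, 0.16, 0.20, -0.18 and -0.21 on WASP-intact arrays 1 to 5 (log2 units). The genotypes overlapped. Over the 7 Cd2-low arrays the genes of highest Pearson r to this mean, out of 12660 others, were Bcat1 (0.990), an aminotransferase of branched-chain amino acids, Acsl5 (0.989), a long-chain acyl-CoA synthetase, Myzap (0.984), Scd1 (0.982), a fatty acid desaturase, and Pik3cg (0.981), a catalytic subunit of phosphoinositide 3-kinase. They were picked as the highest of all genes searched over 7 arrays of both genotypes, so no p is given.

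These 5 genes parted on the Cd2 split. Medians on Cd2-high arrays differed from those on Cd2-low arrays by -1.22 for Bcat1 and -1.03 for Myzap, and by 0.24 for Acsl5, 1.49 for Scd1 and 1.13 for Pik3cg. On the same split the medians of 8 of the 10 class I processing genes were lower on Cd2-high arrays, only Psmb9, Tap1 and Tapbp without overlap. As given above, the share of all genes with a lower median was not counted.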
